A study of Rattus norvegicus with 8 samples.

Results

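The acute phase proteins and the interleukin 6 (IL6) signalling genes of the liver were examined in rats on a diet without added iron. The set held 10 genes, Crp, Serpina3m, Serpina3n, Itih4, Agt, Lcn2, Il6r, Socs3, Stat3 and A2m, found by their symbols in the array annotation wherever a probe set was paired with exactly 1 symbol. They were measured by 11 of the 31042 probe sets tested, and made up 10 of 14217 named genes. Stat3 had 2 probe sets and the other 9 genes had 1 each.

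RNA was measured on 8 Affymetrix rat arrays. Of the male Sprague-Dawley rats, an outbred strain, 4 had received the iron-deficient diet and 4 the control diet, and each array was labelled a biological replicate. The control diet was the AIN93G rodent diet with its cellulose exchanged for Avicel, a purified cellulose, and the iron-deficient diet was that same diet without ferric citrate. Rats were bought at 3 weeks of age and were 7 weeks old according to the labels. Day 8 was given as the day of the diet split, and day 17 was counted as a day of diet. Both groups had daytime-only access to food for 4 days from day 12. Both were fed for 1.5 h before livers were taken on day 17. The diets were given to 7 rats (iron-deficient) and 6 rats (control), and the labels do not say which of them gave the arrays. Blood hemoglobin on day 17 in the iron-deficient group was 42% of that in the control group. The labels name no inflammatory stimulus in either group. The comparison sets dietary iron deficiency against an adequate iron supply.

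In the acute phase response, IL6 binds its receptor on hepatocytes, the receptor pairs with the shared chain gp130, and JAK kinases phosphorylate the transcription factor STAT3. STAT3 then switches on genes of secreted plasma proteins, along with its own inhibitor SOCS3, which binds gp130 and the kinases and shuts the signal off. The same pathway drives the iron hormone hepcidin, encoded by Hamp, which ties inflammation to iron withholding. Without inflammation, hepcidin is set mainly by iron itself, and iron deficiency lowers it.

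The promoters shown are those of the neighbouring Serpina3 genes and of the other members with a match to an IL6-related motif. The means of the Serpina3 genes did not point the same way in the deposited values. They were chosen after the values were seen. Each run is the 250 bases before the annotated start, 5′ to 3′ on the gene's strand, from the RefSeq annotation of rat build GRCr8. The regions are chr6:129088142-129088391 on the plus strand for Serpina3n, chr6:128836840-128837089 on the minus strand for Serpina3m, chr16:6086735-6086984 on the plus strand for Itih4 and chr3:36081781-36082030 on the minus strand for Lcn2. Capitals mark matches to the motifs searched.
Serpina3n: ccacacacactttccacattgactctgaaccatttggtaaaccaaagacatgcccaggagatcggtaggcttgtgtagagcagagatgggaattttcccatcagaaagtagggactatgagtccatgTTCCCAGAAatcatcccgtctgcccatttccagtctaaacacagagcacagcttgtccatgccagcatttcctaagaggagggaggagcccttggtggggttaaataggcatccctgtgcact
Serpina3m: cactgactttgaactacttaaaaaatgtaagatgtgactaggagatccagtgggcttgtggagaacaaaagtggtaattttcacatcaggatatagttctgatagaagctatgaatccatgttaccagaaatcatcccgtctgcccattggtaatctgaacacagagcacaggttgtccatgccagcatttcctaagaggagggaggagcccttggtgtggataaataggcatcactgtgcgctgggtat
Itih4: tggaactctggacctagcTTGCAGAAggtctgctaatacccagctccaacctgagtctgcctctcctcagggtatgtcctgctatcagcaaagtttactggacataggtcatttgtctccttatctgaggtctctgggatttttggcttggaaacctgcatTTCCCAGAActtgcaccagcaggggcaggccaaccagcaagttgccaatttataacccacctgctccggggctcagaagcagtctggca
Lcn2: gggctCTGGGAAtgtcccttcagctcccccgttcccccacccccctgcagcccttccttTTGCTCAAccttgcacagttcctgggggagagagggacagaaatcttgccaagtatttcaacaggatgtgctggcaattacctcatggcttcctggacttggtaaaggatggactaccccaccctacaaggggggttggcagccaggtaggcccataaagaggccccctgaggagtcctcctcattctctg

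Of the 10 genes, 8 had a promoter in that annotation, all but Agt and A2m. Motifs were searched on both strands: TTCNNNGAA, the core that STAT proteins bind, CTGGGAA, known as the class 2 IL6 response element, and TTGCNNAA, a C/EBP pattern. The STAT pattern was present in 2 of the 8 promoters, those of Serpina3n and Itih4, and in 7.67% of 33469 annotated promoters. The CTGGGAA pattern was present in 3 of the 8, in Serpina3n, Itih4 and Lcn2, and in 9.56% of all promoters. The C/EBP pattern was present in 2 of the 8, in Itih4 and Lcn2, and in 9.22% of all promoters. In Serpina3n the STAT match TTCCCAGAA covered bases 123 to 115 before the start, and the CTGGGAA match on the other strand lay inside it. Itih4 carried the same 9 bases, TTCCCAGAA, 89 to 81 bases before the start, again with the CTGGGAA match on the other strand inside them. A match describes letters only, and binding was not measured.

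Serpina3m and Serpina3n lie on chromosome 6 with 4 other protein-coding genes between them, Serpina3j, Serpina3a, Serpina3c and Serpina3l. Their promoters were alike over 195 of 266 aligned columns, or 73.3%. Opposite the STAT match of Serpina3n, the Serpina3m promoter read TTACCAGAA, a single substitution, C3A, with the Serpina3n base first and positions counted from 1 at the 5′ end of the match. Serpina3m therefore had no match to TTCNNNGAA in its window.

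The deposited values were on a log2 scale with nearly the same distribution on every array: array medians lay from 7.1199 to 7.1207 and the 25th percentile at 6.55 on all 8. Differences between arrays were compressed in the deposited table, and by an amount that differed between probe sets, so a difference is not a fold change and its size cannot be set against that of another probe set. Values per array are therefore given as the distance from the control mean of the same probe set, in millionths or thousandths of a deposited log2 unit. The standardised difference counts each difference in within-group SDs of its own probe set. Where a difference changed sign under another scaling (each array centred on its median, or quantile normalization with or without the Hamp probe set), this is said beside it. The array medians differed by more than the median within-group SD of 7.82e-06, so median centring added spread to most probe sets. For those, a count that fell under median centring could not test the result. In bulk liver, fewer cells of a type and less RNA per cell cannot be told apart.

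None of the 11 member probe sets passed the threshold, an adjusted p of 0.05 in limma, where 0.0322% of all probe sets did. Their limma adjusted p-values ran from 0.277 to 0.994. At an unadjusted p under 0.05 there were 2 member probe sets, or 18.2%, where the background share was 11.4%. Both were lower in iron-deficient livers, as were 6.2% of all probe sets at that p: Serpina3m, a serine protease inhibitor, and Agt, the precursor of the angiotensins. In 8 of 11 the iron-deficient mean was higher than the control mean, where 49.6% of all probe sets were higher. The median standardised difference was 0.495 over the 11 and -0.0105 over all probe sets. No member probe set had groups that did not overlap, where 6.48% of all probe sets did. Under quantile normalization 5 member probe sets passed the threshold, those of Agt, Crp, Itih4, Serpina3m and Serpina3n, where 3.51% of all probe sets passed under it, and with Hamp left out of it 0 did, where 0.271% of all probe sets passed. The same scalings moved the shares over all genes against which the lists are read. At an unadjusted p under 0.05 these were 13.2% as deposited, 20.4% under quantile normalization, 11.6% under it without Hamp and 2.16% under median centring. Without overlap they were 7.82%, 8.67%, 3.19% and 0.724% in that order.

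**Figure D1:**
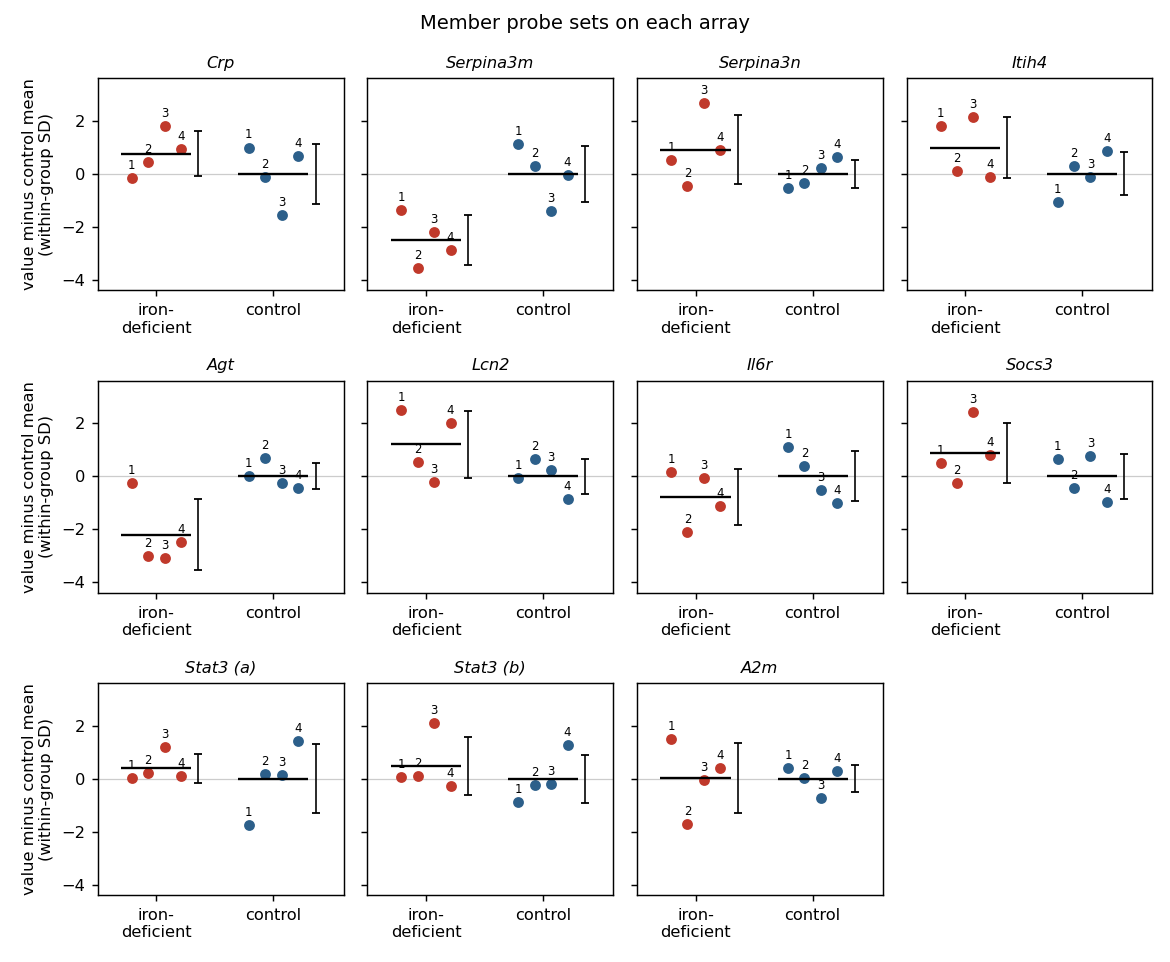
Value on each array minus the control mean of the same probe set, in units of its within-group SD, for the 11 member probe sets. Stat3 (a) and (b) are the first and second Stat3 probe set. Points are single arrays numbered by replicate, the horizontal line is the group mean and the bar at its side the SD, with 4 iron-deficient and 4 control arrays; the groups overlap in every panel, and in Serpina3m and Agt 3 of 4 iron-deficient arrays lie below all controls.

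Il6r encodes the chain that binds IL6 itself. Its values in iron-deficient livers 1 to 4 were 69.7, -879, -22.9 and -462 millionths from the control mean, against 469, 166, -214 and -421 millionths in control livers 1 to 4. Iron-deficient livers 2 and 4 read below every control, and livers 1 and 3 lay inside the control range, so the groups overlapped. The difference was -0.000324 ± 0.000282 (limma adjusted p = 0.733; errors of differences are limma's SE, n = 4 per group), and it turned positive under quantile normalization (0.000137). The mean level was 10.16 on the deposited log2 scale.

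The other genes upstream of STAT3 were described from lists chosen with earlier results known. Of 9 listed IL6-family ligands 7 were measured, 2 higher and 5 lower, none of them at an unadjusted p under 0.05 and none without overlap, where 13.2% and 7.82% of all genes were. The threshold itself was passed by 0.0422% of all genes. Il6 itself, named here although the naming rule did not select it, differed by 6.64e-07 ± 3.01e-06 (limma adjusted p = 0.967). Its mean level of 5.89 lay below the 25th percentile of the arrays, 1 of 4 ligands where this was so, and expression above background was not shown. The ligands with the largest standardised differences were Osm, oncostatin M (-2.39e-06 ± 1.15e-06, limma adjusted p = 0.503), and Cntf, ciliary neurotrophic factor (-9.00e-06 ± 6.72e-06, limma adjusted p = 0.68). Both turned higher under median centring, and Osm also under both quantile normalizations.

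Of 16 listed receptors, kinases and STAT proteins other than members, 12 were measured, 7 higher and 5 lower. Jak2, one of the kinases that IL6 receptors use, was the only gene of this list with an unadjusted p under 0.05 and the only one without overlap. The share at that p was 8.33%, against 13.2% of all genes, and the share without overlap 8.33%, against 7.82%. Jak2 values were 5.33, 4.80, 4.53 and 2.97 millionths from the control mean in iron-deficient livers, against -0.347, 1.51, -3.33 and 2.17 millionths in control livers. All 4 iron-deficient livers lay above all controls, but the difference of 4.41e-06 ± 1.45e-06 had an adjusted p in limma of 0.343 and turned lower under both quantile normalizations. Il6st, which encodes gp130 and was named after its values were seen, differed by 3.10e-06 ± 7.37e-06 on its brightest probe set (limma adjusted p = 0.926), and turned lower under quantile normalization without Hamp.

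Stat3 was read by 2 probe sets. On the first the iron-deficient livers lay 0.6, 3.27, 18.8 and 1.47 thousandths from the control mean, against -27.1, 2.71, 2.39 and 22.0 thousandths in control livers. On the second they lay 0.355, 0.586, 12.5 and -1.71 thousandths from the control mean, against -5.07, -1.32, -1.07 and 7.45 thousandths in control livers. In both, control liver 1 read lowest of all 8 and iron-deficient liver 3 and control liver 4 read highest, so both diets were among the highest readings. The differences were 0.00604 ± 0.0105 (limma adjusted p = 0.889) and 0.00292 ± 0.00398 (limma adjusted p = 0.847). Each turned slightly negative when a single array was left out: -0.00299 without control replicate 1 for the one and -0.000257 without iron-deficient replicate 3 for the other.

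The 2 Stat3 probe sets followed each other over the 8 arrays, with Pearson's r = 0.842 (exact permutation p = 0.0123) and Spearman's rho = 0.81 (exact permutation p = 0.0218). Without the 2 arrays farthest from the median of the first probe set r was 0.976. Among the 55 pairs of member probe sets the adjusted p was 0.291 for r and 0.384 for rho. The SD of the first over the 8 arrays was 2.6 times that of the second, although both read the same gene.

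**Figure D2:**
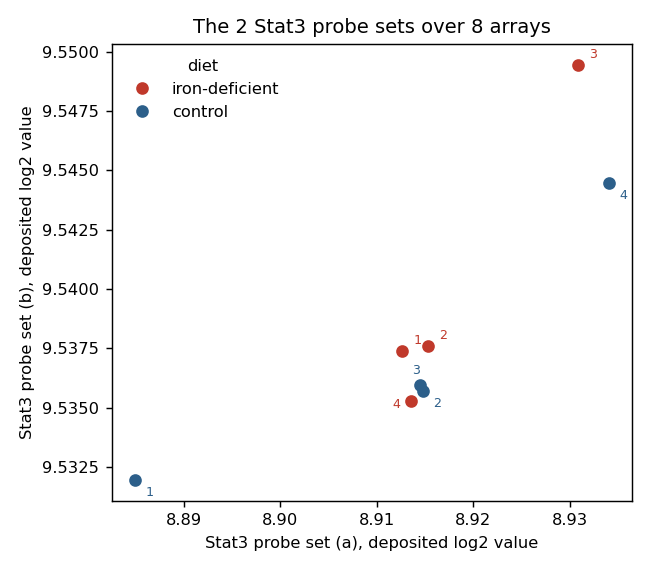
The 2 Stat3 probe sets against each other, the first on the x axis and the second on the y axis, as deposited log2 values, 1 point per array. Iron-deficient and control arrays mix along the same line (r = 0.842), and the values on the x axis span 2.8 times the range of those on the y axis.

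Socs3 encodes the feedback inhibitor of the pathway. Iron-deficient livers 1 to 4 gave Socs3 values of 3.81, -1.98, 18.5 and 6.16 millionths from the control mean, against 4.95, -3.25, 5.73 and -7.43 millionths in control livers. Iron-deficient livers 3 and 4 read above every control, liver 4 only just, and livers 1 and 2 lay among the controls. The difference was 6.63e-06 ± 5.18e-06 (limma adjusted p = 0.698), and it turned negative under both quantile normalizations, at -1.87e-05 and, without Hamp, -9.19e-05. Its mean level of 7.06 was below the array medians.

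Of 13 other listed brakes on IL6 signalling 12 were measured, 4 higher and 8 lower. Before adjustment, 2 higher and 2 lower genes had a limma p under 0.05, or 33.3% against 13.2% of all genes, and none passed the threshold. Groups did not overlap for 3, or 25%, against 7.82% of all genes. Of the 12, those at that p numbered 4 under quantile normalization, 2 under it without Hamp, 1 under median centring and 2 without control replicate 4. Those without overlap numbered 1, 2 and 1 under the 3 scalings. Cish, an inhibitor of cytokine receptors that signal through STAT5, read 7.49, 7.39, 7.16 and 7.11 in iron-deficient livers, against 7.55, 7.57, 7.63 and 7.52 in control livers. It was lower in all 4 iron-deficient livers, with a difference of -0.279 ± 0.09 (limma adjusted p = 0.338), and its other probe set was lower too. Socs7, another member of the SOCS family, differed by -2.80e-05 ± 6.03e-06 (limma adjusted p = 0.196), but turned higher under median centring and quantile normalization. Ptpn2, a phosphatase that acts on JAK kinases and STAT proteins, differed by 1.83e-05 ± 6.27e-06 (limma adjusted p = 0.359).

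A2m encodes alpha-2-macroglobulin, a protease inhibitor that is a major acute phase protein of the rat. The 4 iron-deficient livers had A2m values of 20.6, -23.4, -0.853 and 5.53 thousandths from the control mean, against 5.55, 0.455, -10.1 and 4.05 thousandths in control livers. Iron-deficient liver 1 was highest and iron-deficient liver 2 lowest of the 8, so the iron-deficient group spanned the whole control range. The difference was 0.000457 ± 0.00936 (limma adjusted p = 0.994), a standardised difference of 0.033 with a 95% interval from -1.59 to 1.65. It turned negative without iron-deficient replicate 1, iron-deficient replicate 4 or control replicate 3, with values from -0.00625 to 0.00842 over the arrays left out.

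Crp encodes C-reactive protein, a pentraxin that marks damaged cells and microbes. For Crp, the iron-deficient livers lay -0.0838, 0.246, 1.03 and 0.538 thousandths from the control mean, against 0.563, -0.0581, -0.888 and 0.384 thousandths in control livers. Only iron-deficient liver 3 read above every control. The difference was 0.000432 ± 0.000383 (limma adjusted p = 0.738).

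Serpina3n is one of the antichymotrypsin-like protease inhibitors and carries the STAT match shown above. Serpina3n values in iron-deficient livers were 59.4, -53.1, 302 and 102 millionths from the control mean, against -59.4, -40.3, 26.3 and 73.4 millionths in control livers. Iron-deficient livers 3 and 4 read above every control, while iron-deficient liver 2 was near the lowest control. The difference was 0.000102 ± 7.66e-05 (limma adjusted p = 0.681).

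Serpina3m, the neighbour of Serpina3n, had a lower mean in iron-deficient livers. Whether the STAT match bears on the direction of either gene was not tested. Serpina3m values in iron-deficient livers were -6.44, -16.7, -10.4 and -13.4 millionths from the control mean, against 5.33, 1.42, -6.61 and -0.145 millionths in control livers. Iron-deficient livers 2, 3 and 4 read below all controls, and liver 1 lay just above control liver 3, the single overlap. The difference was -1.17e-05 ± 3.24e-06, a standardised difference of -2.5 with a 95% interval from -4.16 to -0.846. Its limma adjusted p was 0.277 and the exact permutation p, two-sided, was 0.0571, where 0.0286 is the smallest that 4 against 4 arrays can give. The sign turned under quantile normalization (0.00574) and under median centring (3.89e-05). Whether probes of this set also read the other Serpina3 genes nearby was not tested.

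Agt encodes angiotensinogen, which the liver secretes and which cytokines induce. Agt values in iron-deficient livers were -6.64, -80.1, -82.0 and -66.3 millionths from the control mean, against 0.222, 18.3, -6.90 and -11.6 millionths in control livers. Iron-deficient livers 2, 3 and 4 stood apart well below the controls, and liver 1 lay among them. The difference was -5.88e-05 ± 1.81e-05, a standardised difference of -2.2 with a 95% interval from -3.82 to -0.578 (limma adjusted p = 0.318, exact permutation p = 0.0857). Without iron-deficient replicate 1 the difference was -7.61e-05 and its limma adjusted p 0.108, the lowest over the arrays left out. The sign turned under quantile normalization (0.00637).

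Serpina3m and Agt followed each other over the 8 arrays, with r = 0.851 (exact permutation p = 0.0128) and rho = 0.833 (exact permutation p = 0.0154). Without the 2 arrays farthest from the median of Serpina3m r was 0.835, and with the group means removed it was 0.583. Adjusted over the 55 pairs the p was 0.291 for r and 0.384 for rho.

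Itih4 encodes a secreted heavy chain of the inter-alpha-trypsin inhibitor family and carries the STAT match shown above. For Itih4, the iron-deficient livers lay 3.96, 0.222, 4.67 and -0.238 millionths from the control mean, against -2.32, 0.672, -0.268 and 1.91 millionths in control livers. Iron-deficient livers 1 and 3 read above all controls, and livers 2 and 4 lay among them. The difference was 2.15e-06 ± 1.63e-06 (limma adjusted p = 0.685).

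Lcn2 encodes lipocalin 2, which binds the iron-carrying siderophores of bacteria and is made by hepatocytes in the acute phase and also by neutrophils. Lcn2 values in iron-deficient livers were 680, 149, -56.7 and 546 millionths from the control mean, against -13.9, 183, 69.9 and -239 millionths in control livers. Iron-deficient livers 1 and 4 read above all controls and the other 2 lay among them. The difference was 0.00033 ± 0.000185, a standardised difference of 1.21 with a 95% interval from -0.413 to 2.83 (limma adjusted p = 0.564). Its mean level of 6.67 lay close to the 25th percentile of the arrays.

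Of 12 listed neutrophil markers 8 were measured, 6 higher and 2 lower, none at an unadjusted p under 0.05. Their mean position, in within-group SDs from the mean over all arrays, ran from -0.329 to 0.553 in iron-deficient livers and from -0.527 to 0.809 in control livers. Of the 8, 7 lay below the 25th percentile of the arrays, and the brightest were S100a9 and Camp. All 10 measured Kupffer cell and macrophage markers of 14 listed were higher, where 47% of all genes were. Of these, 2 (20%) had an unadjusted p under 0.05, against 13.2% of all genes, and 2 had no overlap, against 7.82%. Each count was 1 under median centring and 1 under quantile normalization without Hamp. Their mean position as deposited ran from -0.565 to 1.22 in iron-deficient livers and from -1.23 to 0.223 in control livers. The brightest of them were Clec4f and C1qa. Hepatocyte markers, 11 measured of 12, were 6 higher and 5 lower, with a mean position from -0.48 to 0.432 in iron-deficient livers and from -0.659 to 0.353 in control livers. The part of these cells in the values of Lcn2 and of the other members was not tested.

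**Figure D3:**
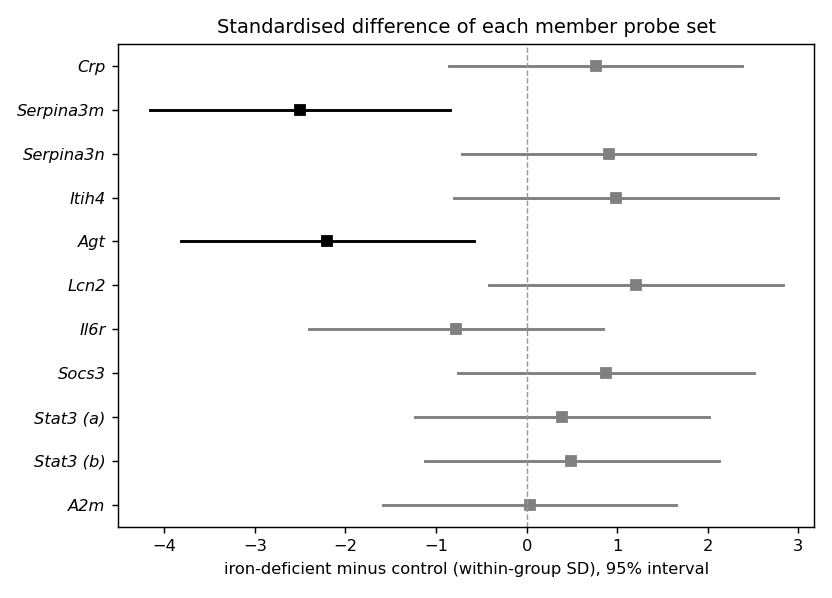
Standardised difference, iron-deficient minus control, for the 11 member probe sets, with its 95% interval. Squares in black had an unadjusted limma p under 0.05, which were Serpina3m at -2.5 and Agt at -2.2; the other 9 intervals cross 0.

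The wider list of positive acute phase proteins, those that rise in inflammation, had 28 measured of 32, 22 higher and 6 lower, where 47% of all genes were higher. At an unadjusted limma p under 0.05 there were 4, all higher, or 14.3% against 13.2% of all genes in either direction and 5.74% of all genes that were higher at that p. Groups did not overlap for 2, also both higher, or 7.14% against 7.82% of all genes in either direction and 3.42% that were higher. Those at that p numbered 22 under quantile normalization, 2 under it without Hamp and 4 under median centring, and those without overlap 19, 2 and 1. None passed the threshold as deposited. Mt2A, a metallothionein that binds zinc and copper, read 10.95, 10.97, 11.08 and 10.99 in iron-deficient livers, against 10.71, 10.89, 10.76 and 10.88 in control livers. Every iron-deficient liver lay above every control, with a difference of 0.187 ± 0.0494 (limma adjusted p = 0.264). Serpina1, alpha-1-antitrypsin, also had groups apart, but its difference of 2.25e-07 ± 6.93e-07 was smaller than its moderated SE (limma adjusted p = 0.946). Under quantile normalization the Serpina1 difference was 0.00597 (limma adjusted p = 5.85e-15), and without Hamp in that normalization it was 0.

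The negative acute phase proteins, which fall in inflammation, had 14 measured of 15, 5 higher and 9 lower, with 1 (7.14%) at an unadjusted p under 0.05, against 13.2% of all genes, and none without overlap, against 7.82%. Under quantile normalization 12 had that p and 12 had no overlap, and without Hamp in it 0 had either. The median standardised difference was -0.198, where it was 0.64 for the positive list and -0.0728 for all genes. The largest standardised differences were those of Ttr, transthyretin (-1.68e-07 ± 6.94e-07, limma adjusted p = 0.962), and Serpinf2, alpha-2-antiplasmin (-5.31e-05 ± 1.93e-05, limma adjusted p = 0.384). Both turned higher under quantile normalization, Ttr to 0.0187 (limma adjusted p = 1.37e-17), and Ttr also under median centring. Without Hamp in quantile normalization the Ttr difference was 0.

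**Figure D4:**
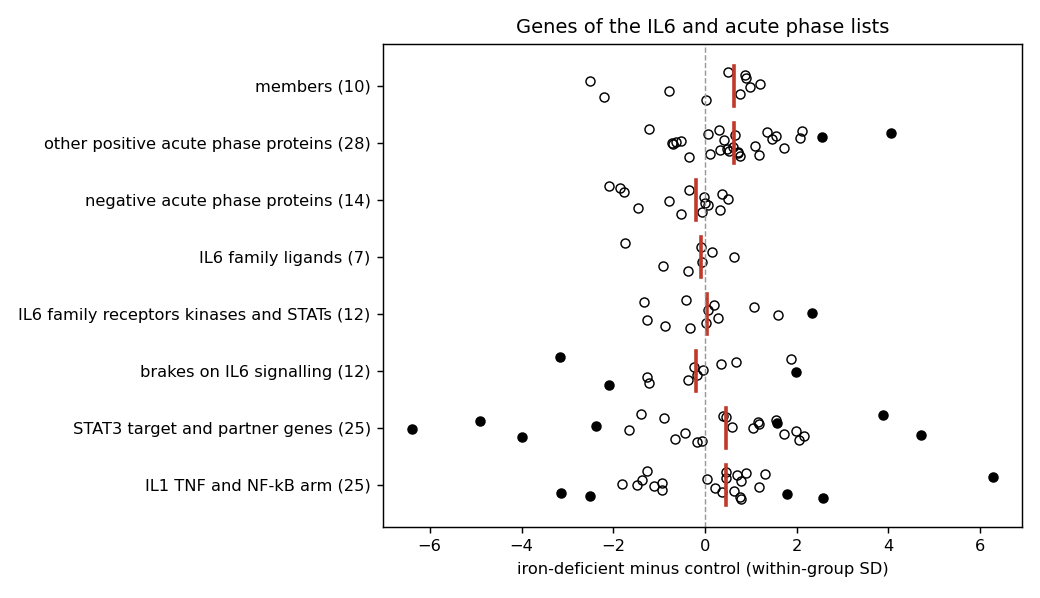
Standardised difference, iron-deficient minus control, of each measured gene in the members and the pathway lists, 1 row a list with its number of genes. Each point is a gene, filled where the groups do not overlap, and the red bar is the list's median: 0.64 for the 28 other positive acute phase proteins, -0.198 for the 14 negative ones and 0.456 for the 25 STAT3 targets and partners.

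Among the targets and partners of STAT3, all 25 listed genes were measured, 14 higher and 11 lower. This list was also chosen with earlier results of these data known, so its shares are a description and not a test. Before adjustment, 6 higher and 5 lower genes had a limma p under 0.05, together 44% against 13.2% of all genes, and 7 had groups that did not overlap, or 28% against 7.82%, 3 of them higher and 4 lower. Of all genes 7.5% were lower at that p, and 4.4% were lower without overlap. None passed the threshold. Those at an unadjusted p under 0.05 numbered 12 under quantile normalization, 6 under it without Hamp and 10 under median centring. Those without overlap numbered 6, 5 and 6 in that order.

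Hamp, encoding hepcidin, read 6.98, 10.58, 6.99 and 6.93 in iron-deficient livers, against 16.01, 15.99, 15.99 and 16.10 in control livers. Iron-deficient liver 2 stood between the other 3, which read below the array medians, and the controls. Whether the control readings, near the top of the scale, were saturated was not tested. The difference was -8.16 ± 0.864 (limma adjusted p = 0.0735), and without iron-deficient replicate 2 it was -9.06 with an adjusted p of 2.79e-08. In the fit on the mean of a gene's probe sets its adjusted p was 0.0476. Hamp has 1 probe set, and its difference and SE there were the same, but the adjustment ran over 14217 genes and not 31042 probe sets. In the fits on probe sets the limma adjusted p was 0.000467 under median centring, 0.00255 under quantile normalization, 0.0225 under it without Hamp and 0.302 with the replicate block.

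Myc, a transcription factor of cell growth, read 6.9400, 6.9437, 6.9332 and 6.9377 in iron-deficient livers, against 6.9727, 6.9710, 6.9819 and 6.9613 in control livers. The difference was -0.0331 ± 0.00455 (limma adjusted p = 0.089), and the adjusted p was 0.00227 under median centring, 0.00761 under quantile normalization, 0.0655 under it without Hamp and 0.332 with the replicate block. Ccnd1, cyclin D1, which drives entry into the cell cycle, read 8.03, 8.13, 8.04 and 7.89 in iron-deficient livers, against 8.33, 8.31, 8.34 and 8.26 in control livers. Its difference of -0.29 ± 0.0491 had an adjusted p in limma of 0.131, and all 3 of its probe sets were lower. That p was 0.00768 under median centring, 0.0241 under quantile normalization, 0.133 under it without Hamp and 0.323 with the replicate block. Both genes were lower in all 4 iron-deficient livers.

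Cebpd, a C/EBP transcription factor that acts with STAT3 on acute phase genes, was higher. Its values in iron-deficient livers were 617, 692, 980 and 822 millionths from the control mean, against -117, 162, -173 and 129 millionths in control livers. The groups stood well apart and all 3 of its probe sets were higher, with a difference of 0.000778 ± 0.000111 on the brightest (limma adjusted p = 0.0946). Its adjusted p was 0.000474 under quantile normalization, 0.0823 under it without Hamp, 0.917 under median centring and 0.341 with the replicate block. The remaining 3 targets without overlap were named after their values were seen. Timp1, an inhibitor of matrix metalloproteinases that is also in the stellate cell list, differed by 8.60e-05 ± 1.50e-05 (limma adjusted p = 0.137). Junb, an AP-1 subunit, differed by 0.00398 ± 0.00171 (limma adjusted p = 0.451). Il4r, an interleukin 4 receptor chain, differed by -5.69e-05 ± 1.62e-05 (limma adjusted p = 0.288) but turned higher under both quantile normalizations.

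Among endothelial markers 10 of 12 measured were higher, 7 (58.3%) at an unadjusted p under 0.05, against 13.2% of all genes, and 8 (66.7%) without overlap, against 7.82%. Those without overlap numbered 3 under quantile normalization, 1 under it without Hamp and 2 under median centring. Their mean position as deposited ran from 0.59 to 1.92 in iron-deficient livers and from -1.6 to -0.912 in control livers. For 13 stellate cell and fibroblast markers, 10 higher and 5 (38.5%) without overlap, those without overlap numbered 3, 3 and 2 under the same scalings. Their mean position as deposited ran from 0.404 to 1.13 in iron-deficient livers and from -1.0 to -0.697 in control livers. Their part in the values of Cebpd, Timp1 and the other targets was not tested.

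**Figure D5:**
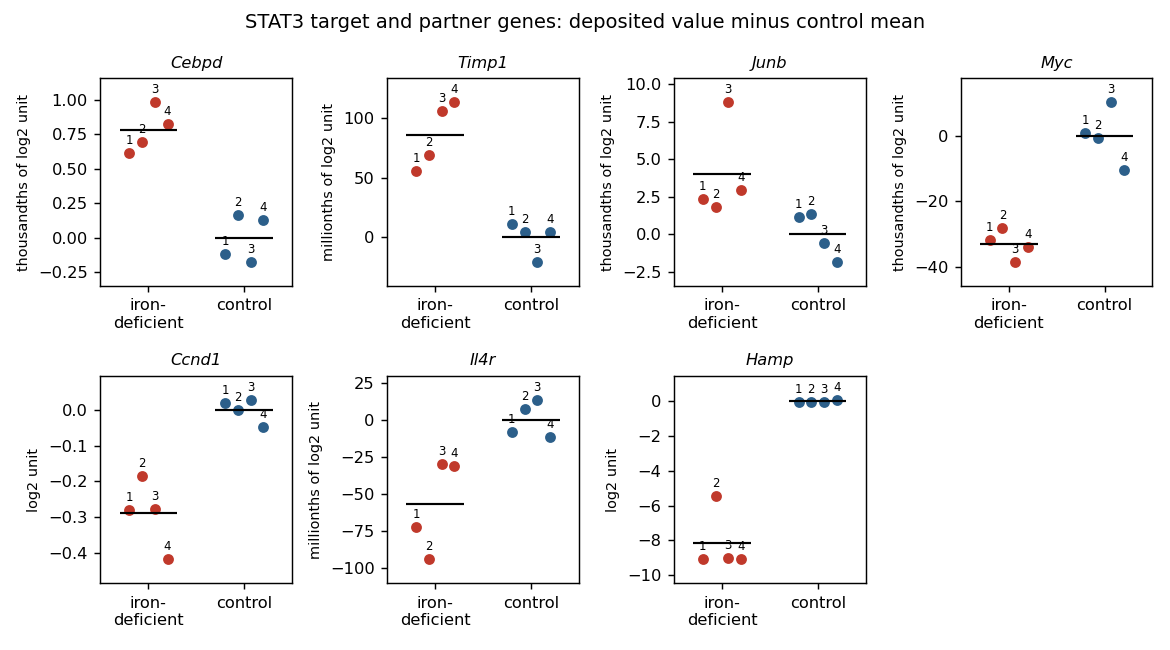
The 7 STAT3 targets whose groups do not overlap, as the deposited value on each array minus the control mean of that probe set. Points are arrays numbered by replicate, lines are group means, and each panel has its own axis and unit (log2 units, their thousandths or their millionths); Cebpd, Timp1 and Junb lie higher and Myc, Ccnd1, Il4r and Hamp lower in all 4 iron-deficient livers.

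The arm of interleukin 1, tumour necrosis factor and NF-kB, which acts beside IL6 on acute phase genes, had 25 measured of 27, 16 higher and 9 lower. The limma p before adjustment was under 0.05 for 3 higher and 3 lower genes, or 24% against 13.2% of all genes, and 5 had groups that did not overlap, or 20% against 7.82%. None passed the threshold as deposited. Those at that p numbered 4 under quantile normalization, 5 under it without Hamp and 1 under median centring, and those without overlap 2, 2 and 1. Tlr4, the receptor for bacterial lipopolysaccharide, differed by 4.44e-06 ± 8.40e-07 (limma adjusted p = 0.152), but turned lower under both quantile normalizations. Il1b, interleukin 1 beta, differed by -1.23e-05 ± 2.73e-06 (limma adjusted p = 0.209), but turned higher under median centring. Chuk and Ikbkb encode the catalytic kinases that release NF-kB. Chuk differed by 1.32e-05 ± 3.55e-06 (limma adjusted p = 0.269). Under quantile normalization without Hamp it turned lower, at -0.00436 ± 8.79e-06, and passed the threshold (limma adjusted p = 3.42e-12). Il6, Jak1, Serpina1 and Ttr had that same SE there, with differences of 0. Quantile normalization gives each probe set the value of its rank. Whether a change of rank gave the Chuk value was not tested. Ikbkb differed by -8.98e-05 ± 2.43e-05 (limma adjusted p = 0.272). Il1a, interleukin 1 alpha, was the other gene of this list without overlap, and was named after its values were seen, with a difference of 0.00317 (limma adjusted p = 0.399).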

How the data were processed

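The authors' deposited table of 31099 probe sets gave 1 log2 value for each array, a unit read from the values. The authors' probe summary and normalization were not given in the sources used here. After 57 array controls were left out, 31042 probe sets entered 1 linear model (limma 3.58.1, R 4.3.3), lmFit then eBayes with neither trend nor robust option and no block, as iron-deficient minus control, with Benjamini-Hochberg adjustment over all of them and a threshold of 0.05. The labels call the 8 arrays biological replicates, and their number, 4 per group, limits the precision. Platform annotation paired 20826 probe sets with 1 symbol, 436 with several and 9780 with none. A listed gene was read from its brightest probe set. Exact permutation tests over 8 arrays were two-sided. The fit was tested on simulated data.

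The members, the lists and the rule for naming genes were chosen with earlier results of these data known. The rule named every member probe set, Hamp, list genes past the threshold, then up to 4 per list without overlap or else the 2 with the largest standardised difference. It planned promoters of members without overlap, of which there were none, and proteins, which were not used here. Alternatives were quantile normalization with and without Hamp, median centring, each array left out, a filter on the dimmest 25% of probe sets, variance models, the mean of a gene's probe sets and a replicate block. Promoters came from RefSeq (GRCr8). Arrays have no read depth. Detection calls were not used here.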

Additional observations from a re-analysis of the deposited data

Results flagged for a closer look

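Among 80 groups of 4 arrays, each a named probe set in 1 diet group, 5 had a highest or lowest array whose gap to the next, divided by the range of the group, was above the 95% critical value of 0.829. Chance gives about 1 in 20 groups. On both Stat3 probe sets iron-deficient replicate 3 read far above the other 3 iron-deficient livers, with a ratio of 0.853 for the first and 0.838 for the second. Junb, an AP-1 subunit induced through STAT3, had the same liver far above the other 3 (0.835). For Hamp, which encodes hepcidin, replicate 2 of the iron-deficient group stood apart at 10.58, with 6.98, 6.99 and 6.93 in replicates 1, 3 and 4 (0.984). For Jak1, a kinase of the IL6 receptor, replicate 1 of that group lay 1.59 millionths above the control mean, with 0.812, 0.852 and 0.702 in replicates 2, 3 and 4 (0.831).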

How the results depend on the processing

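Under quantile normalization 5 member probe sets (Agt, Crp, Itih4, Serpina3m and Serpina3n) passed the threshold, 5 had an unadjusted p under 0.05 and 5 had groups without overlap, all higher in iron-deficient livers. Over all probe sets these shares were 3.51%, 16.9% and 6.44% under that normalization. Other lists had like counts there: 10 of 11 hepatocyte markers and 12 of 14 negative acute phase proteins had that p. Hamp was the brightest probe set on all 4 control arrays and ranked 1471 to 17735 on the iron-deficient arrays, so bright members took the value of a neighbouring rank: Serpina3m ranked 213 on every iron-deficient array and 214 on every control array, and Agt ranked 278 and 279. Run without Hamp, that normalization left 0 member probe sets past the threshold and 0 at an unadjusted p under 0.05, and median centring also left 0 at that p. Differences turned under quantile normalization for Serpina3m (0.00574), Agt (0.00637), Il6r (0.000137) and Socs3 (-1.87e-05), under that normalization without Hamp for Socs3 (-9.19e-05) and under median centring for Serpina3m (3.89e-05). Median centring moved every difference up by the same amount, so small negative differences turned higher under it. Serpina3m went from -1.17e-05 to 3.89e-05 and Chuk from 1.32e-05 to 6.38e-05. Median centring also added the spread of the array medians. The SE of Chuk went from 3.55e-06 to 0.000217 and that of Jak2 from 1.45e-06 to 0.000218. Within-group SDs as deposited were 4.68e-06 for Serpina3m and 2.67e-05 for Agt. For probe sets with so small a spread, a loss of calls under median centring could not test the result. The causes of the Il6r and Socs3 changes were not tested. With 1 array left out, 0 member probe sets passed in any of the fits and 2 to 3 had an unadjusted p under 0.05. From 0 to 2 had groups without overlap. These were Agt and Serpina3m without iron-deficient replicate 1 and Serpina3m without control replicate 3. Leaving out an array cannot make separate groups overlap, so a count without overlap could only stay or rise. Differences over the arrays left out ran from -0.00299 to 0.0134 and from -0.000257 to 0.0054 for the Stat3 probe sets and from -0.00625 to 0.00842 for A2m, each crossing 0. Of 25 STAT3 targets, those at an unadjusted p under 0.05 numbered 8 to 12 with 1 array left out, against 11 in all arrays. Those without overlap numbered 7 to 10, against 7, a count that could only stay or rise and so does not test the result. At that p there were 12 under quantile normalization, 6 under it without Hamp and 10 under median centring. Of the 28 other positive acute phase proteins 22 had that p under quantile normalization, against 4. Arrays with the same replicate number did not pair: the correlations of their deviations were -0.111, 0.0245, -0.0251 and -0.0773. With the number as a replicate block, 0 member probe sets passed, 2 had an unadjusted p under 0.05 and 9 STAT3 targets did. The variance models and the filter on the lowest 25% turned no member difference.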

Other observations

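The highest and lowest readings of the members were counted by array. The same counts over all probe sets were not made, so whether they are particular to the members was not tested. Iron-deficient liver 3 read highest of the 8 on 5 of the 11 member probe sets, those of Crp, Serpina3n, Itih4, Socs3 and the second Stat3 probe set, and lowest on 1, that of Agt. Iron-deficient liver 2 read lowest on 3, those of Serpina3m, Il6r and A2m, and highest on none. Control liver 1 read lowest on 4, those of Serpina3n, Itih4 and both Stat3 probe sets, and highest on 2. Iron-deficient liver 4 was at neither end of any member.

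Of 55 pairs of member probe sets, 7 correlated over the 8 arrays at an unadjusted exact permutation p under 0.05 and none after adjustment. Beside the pair of Stat3 probe sets and the pair of Serpina3m and Agt, these were 5. Itih4 had r = 0.789 (exact permutation p = 0.0211) and rho = 0.786 with the second Stat3 probe set, and r = 0.71 (exact permutation p = 0.0418) and rho = 0.548 with the first. Without the 2 arrays farthest from the Itih4 median these r were 0.894 and 0.972. Serpina3n had r = 0.818 (exact permutation p = 0.0196) and rho = 0.5 with the second Stat3 probe set, and r = 0.732 (exact permutation p = 0.0357) and rho = 0.619 with Itih4. Without the 2 arrays farthest from its median these r were 0.248 and 0.254. Serpina3m and Il6r had r = 0.766 (exact permutation p = 0.0268) and rho = 0.833, and r was 0.33 without the 2 arrays farthest from the Serpina3m median. The adjusted p for r ran from 0.291 to 0.328 over these pairs.

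Of 14216 other genes, those whose values over the 8 arrays were most like Socs3 were Numb, Cenpa and Rab27b, each with r = 0.957, and rho of 0.905, 0.976 and 0.857. Without the 2 arrays farthest from the Socs3 median their r was 0.842, 0.988 and 0.83. Those most like A2m were Eif3f, Rpl12 and Pkib, with r of 0.965, 0.917 and 0.916, and 0.831, 0.964 and 0.348 without the 2 arrays farthest from the A2m median. These were picked as the highest among all genes over 8 arrays and are a description.

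Of 9 measured red cell and erythroid markers 5 were higher and 4 lower in iron-deficient livers. Of these, 3 (33.3%, against 13.2% of all genes) had an unadjusted limma p under 0.05, 2 higher and 1 lower. Groups did not overlap for 1 (11.1%, against 7.82% of all genes), Ahsp, which encodes a chaperone of alpha globin. Under each of the 3 other scalings 1 had that p and 0 had no overlap. Of 11 lymphocyte markers 5 were higher and 6 lower, and of 7 cholangiocyte markers 4 were higher and 3 lower. In the last 2 lists none had an unadjusted p under 0.05.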
